A study of Mus musculus with 6 samples.

Results

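The Zic genes Zic1, Zic2, Zic4 and Zic5 were followed through the differentiation of mouse embryonic stem cells into neurons. They were chosen by their symbols, which gave 4 of the 46517 genes in each abundance table, and all 4 passed the filter on low values. RNA came from E14TG2a, an embryonic stem cell line with the blastocyst as its labelled source, and was sequenced in 2 libraries at each of 3 stages. The stages were untreated stem cells on gelatin without feeder cells, in serum and LIF, a cytokine that keeps them undifferentiated (mESC), then progenitors of neurons (NPC) and finally a stage labelled NC. This abbreviation has no explanation in the labels and is read here as the glutamatergic pyramidal neurons of the study's design text. Progenitors and neurons were made from the stem cells by a published protocol, the genotype label of all 6 libraries is WT, and all carry the cell type label of stem cells, so that the stage comes from the titles. The replicates are labelled biological, without a statement of which cultures they came from. All libraries are from 1 cell line.

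ZIC proteins are transcription factors with a row of zinc fingers closely related to those of the GLI factors, the effectors of Hedgehog signalling. In vertebrate embryos they are known from the neural plate border, the dorsal neural tube and roof plate, the neural crest and the granule neurons of the cerebellum. ZIC2 is also active in pluripotent cells, and in humans its loss of function is a cause of holoprosencephaly, a failure of the forebrain to divide. ZIC1 and ZIC4 are known for their part in cerebellar growth, and loss of both has been linked to Dandy-Walker malformation in humans. Zic5 is known in mice for a role in neural crest and neural tube closure.

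The 4 genes sit in 2 head-to-head pairs (build mm10, positions of the tables, with the same start and end in GENCODE vM21). Zic1 (ENSMUSG00000032368.13) lies at chr9:91358058-91365810 on the minus strand and Zic4 (ENSMUSG00000036972.13) at chr9:91362413-91389348 on the plus strand. Zic2 (ENSMUSG00000061524.8) lies at chr14:122475435-122479852 on the plus strand and Zic5 (ENSMUSG00000041703.7) at chr14:122456795-122465677 on the minus strand. All are annotated as protein coding, with 3 transcripts for Zic1, 12 for Zic4 and 2 each for Zic2 and Zic5. The bodies of Zic1 and Zic4 overlap by 3398 bases at their 5′ ends, whereas the starts of Zic5 and Zic2 are 9758 bases apart.

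The family resemblance is shown by the stretch that opens exon 2 and codes for part of the zinc fingers, since reads from like stretches are the ones a quantifier can least tell apart. It is printed from the GENCODE vM21 transcripts, 5′ to 3′ on the coding strand, with capitals at bases that differ from Zic2 or are absent from it. The coordinates are chr14:122478540-122478703 (plus) for Zic2, chr9:91362459-91362622 (minus) for Zic1, chr9:91384014-91384183 (plus) for Zic4 and chr14:122459606-122459775 (minus) for Zic5.
Zic2: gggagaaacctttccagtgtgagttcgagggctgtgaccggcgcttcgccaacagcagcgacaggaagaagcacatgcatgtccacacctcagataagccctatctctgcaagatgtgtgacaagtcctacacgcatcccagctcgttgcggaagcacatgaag
Zic1: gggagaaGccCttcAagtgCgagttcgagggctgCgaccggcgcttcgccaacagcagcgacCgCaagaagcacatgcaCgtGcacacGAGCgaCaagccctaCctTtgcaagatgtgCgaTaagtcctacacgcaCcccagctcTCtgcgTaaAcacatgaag
Zic4: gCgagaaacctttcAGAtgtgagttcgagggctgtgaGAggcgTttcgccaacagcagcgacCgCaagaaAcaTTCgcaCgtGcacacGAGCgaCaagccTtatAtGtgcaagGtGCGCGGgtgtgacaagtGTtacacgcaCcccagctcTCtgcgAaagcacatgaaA
Zic5: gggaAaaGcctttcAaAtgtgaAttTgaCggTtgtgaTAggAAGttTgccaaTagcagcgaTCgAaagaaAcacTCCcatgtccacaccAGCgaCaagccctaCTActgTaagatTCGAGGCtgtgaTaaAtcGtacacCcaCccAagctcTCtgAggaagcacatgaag

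Against Zic2 this stretch was 86.0% identical in Zic1, 78.2% in Zic4 and 72.9% in Zic5, with 6 extra bases in Zic4 and in Zic5. Between the neighbours Zic1 and Zic4 the identity was 81.2%, and between Zic4 and Zic5 it was 76.5%. Over all annotated transcripts, the longest identical run was 42 bases between Zic1 and Zic4 and 35 bases between Zic1 and Zic2, and it lay between 20 and 30 bases for the other pairs. No pair shared a window of 50 bases. Zic1 and Zic4 also share 60 exonic bases on opposite strands (chr9:91362459-91362518, inside the Zic1 finger stretch), 1.05% of the exonic bases of Zic1 and 0.581% of those of Zic4. The strand setting of the quantification is unknown here, so reads from these 60 bases cannot be told apart.

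Promoters are shown because the members of each chromosomal pair were present at the same stages. The RefSeq promoter windows (build GRCm38.p6, 250 bases before to 50 bases after the start, on the gene's strand) were found for 3 members, Zic1 at chr9:91365719-91366018 (minus), Zic4 at chr9:91368722-91369021 (plus) and Zic5 at chr14:122465609-122465908 (minus). Capitals mark CpG dinucleotides, the sites of DNA methylation in mammals.
Zic1: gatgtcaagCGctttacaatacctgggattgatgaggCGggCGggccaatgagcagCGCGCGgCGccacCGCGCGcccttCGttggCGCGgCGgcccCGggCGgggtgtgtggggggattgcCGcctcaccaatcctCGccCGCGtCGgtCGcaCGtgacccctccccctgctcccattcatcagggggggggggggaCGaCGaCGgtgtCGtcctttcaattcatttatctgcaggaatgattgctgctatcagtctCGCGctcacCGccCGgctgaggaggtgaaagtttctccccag
Zic4: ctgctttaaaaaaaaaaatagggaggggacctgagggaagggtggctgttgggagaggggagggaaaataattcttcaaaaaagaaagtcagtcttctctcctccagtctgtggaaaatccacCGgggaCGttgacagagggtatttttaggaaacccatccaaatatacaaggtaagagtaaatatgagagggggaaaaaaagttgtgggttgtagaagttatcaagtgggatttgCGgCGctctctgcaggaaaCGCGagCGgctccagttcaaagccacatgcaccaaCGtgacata
Zic5: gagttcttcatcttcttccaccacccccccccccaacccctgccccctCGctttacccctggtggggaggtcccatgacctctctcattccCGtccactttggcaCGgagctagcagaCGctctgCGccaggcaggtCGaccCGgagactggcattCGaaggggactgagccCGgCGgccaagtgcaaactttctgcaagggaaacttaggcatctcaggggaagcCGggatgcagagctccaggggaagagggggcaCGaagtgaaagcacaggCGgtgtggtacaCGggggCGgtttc

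The Zic1 window held 31 CpG, a number reached by 10.3% of the 27025 mouse promoters of the same length, whose median was 7 with quartiles at 3 and 21. The Zic5 window held 15 CpG (35.2% of promoters hold as many) and the Zic4 window 8 (49.0%). Their GC content was 65.3% in Zic1, 62.7% in Zic5 and 46.0% in Zic4. The RefSeq start of Zic4 lies inside the gene body of the tables, downstream of their start. The letters CAGCAGG and GACCACCCA, known from sites bound by ZIC and GLI factors, and TATAAA were found in none of these 3 windows on either strand, against 10.4%, 0.244% and 14.2% of all promoters. CCAAT was found in the Zic1 window, as in 37.9% of all promoters. No methylation or binding was measured here.

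Abundance is given in TPM, the share of a gene among all transcripts of a library, which is scaled for transcript length and can be compared between genes. The libraries held an estimated 1.57 to 2.27 Gb of aligned bases, and between 16667 and 19040 genes reached 1 TPM. The stage labels were checked on marker genes. All 8 pluripotency markers fell in NPC against mESC, with a summed level of 25.2 and 19.6 TPM in NPC and 3463 and 4054 TPM in mESC. The summed level of 8 neuron markers was 3199 and 3012 TPM in NC and 595 and 895 TPM in NPC. Of the vesicular glutamate transporters, Slc17a6 reached 28.9 and 21.6 TPM in NC, but Slc17a7, which marks forebrain pyramidal neurons, had 3.21 and 1.69 TPM. Of 20232 tested genes, 40.0% passed an adjusted p of 0.05 in NPC against mESC, 25.3% in NC against NPC and 59.9% in NC against mESC. Since so many genes changed, a call by itself is common in these data.
The calls were not evenly split, with 65.0% of them higher in NPC against mESC, 60.1% in NC against NPC and 63.2% in NC against mESC. Median-of-ratios scaling gave 55.3%, 57.7% and 55.1% for the same comparisons, and quantile normalization gave 51.2%, 47.7% and 47.2%. Over the tested genes the median log2 difference was 0.18, 0.11 and 0.31 in this order, and 0.02, 0.07 and 0.11 with median-of-ratios scaling.

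The 4 genes split by chromosomal pair. Of these 4, Zic2 and Zic5 were present in the stem cells, Zic1 and Zic4 joined them in the progenitors, and all 4 were present in NC. Other genes of the family were not analysed here. Bulk RNA cannot tell fewer cells with a transcript from less RNA per cell.

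Zic1, the member most studied in cerebellum and dorsal neural tube, had 0.0260 TPM in mESC library 1 and 0.0694 TPM in library 2, 15.8 and 56.0 TPM in NPC libraries 1 and 2, and 25.5 and 60.05 TPM in NC libraries 1 and 2. Every NPC and NC library was above both mESC libraries, and the NPC and NC libraries overlapped. On the log2(TPM + 1) scale Zic1 rose in NPC against mESC by 4.88 (SE 0.622, 95% interval 3.39 to 6.38), with an adjusted p of 0.00149 (limma with Benjamini-Hochberg adjustment over all tested genes). It rose in NC against mESC by 5.26 (SE 0.622, interval 3.77 to 6.76, adjusted p = 0.000613). Between NC and NPC the log2 fold change was 0.38 (interval -1.11 to 1.87, adjusted p = 0.693). The size of the rise depends on the pseudocount, since mESC was close to 0. With 0.1 in place of 1 it was 7.67 in NPC and 8.07 in NC, and the call held in all 14 alternatives of either comparison.

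Zic4, the divergent neighbour of Zic1, was listed at 0 in both mESC libraries. It had 2.68 and 13.6 TPM in NPC libraries 1 and 2 and 3.54 and 15.3 TPM in NC libraries 1 and 2. All NPC and NC libraries were thus above mESC, and NPC and NC overlapped. With mESC at 0 a fold has no base, and none is printed. The mean read depth of Zic4 over its exons was low, with 0.566 and 2.36 in the NPC libraries and 0.467 and 2.18 in the NC libraries. For Zic1 it was between 11.85 and 47.7 in the same libraries. Ratios and spreads of Zic4 rest on these depths. Depth and TPM did not scale alike in the 2 genes, so the depths do not compare their numbers of reads. In NPC library 1 Zic1 had a depth of 13.7 with 15.8 TPM, and Zic4 a depth of 0.566 with 2.68 TPM. The adjusted p was 0.0273 in NPC against mESC and 0.0137 in NC against mESC, and the log2 fold change in NC against NPC was 0.23 (interval -1.65 to 2.11, adjusted p = 0.863). Both calls ended when low genes were kept (adjusted p 0.117 in NPC and 0.0693 in NC) and when single libraries were left out. These were mESC 1 (0.155 in NPC and 0.103 in NC), mESC 2 (0.165 and 0.109) and replicate 2 of the stage itself (0.150 without NPC 2, 0.0937 without NC 2). Over 14 alternatives the adjusted p ran between 0.00433 and 0.165 in NPC and between 0.00225 and 0.109 in NC.

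Zic2, the member known from pluripotent cells, had 40.95 and 48.2 TPM in mESC libraries 1 and 2, 19.9 and 51.8 TPM in NPC libraries 1 and 2, and 11.2 and 44.5 TPM in NC libraries 1 and 2. The first libraries of NPC and NC were below both mESC libraries, while the second lay above both in NPC and between them in NC. No comparison passed the threshold. The log2 fold change was -0.45 in NPC against mESC (interval -2.04 to 1.13, adjusted p = 0.630), -0.50 in NC against NPC (-2.08 to 1.09, adjusted p = 0.623) and -0.95 in NC against mESC (-2.53 to 0.64, adjusted p = 0.253). Each interval spans values well below and above 0, so the direction of Zic2 was not resolved with these replicates.

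Zic5, the neighbour of Zic2, had 16.8 and 15.9 TPM in mESC libraries 1 and 2, 5.28 and 15.7 TPM in NPC libraries 1 and 2, and 2.45 and 6.94 TPM in NC libraries 1 and 2. Both NC libraries lay well below mESC, while NPC library 2 was just under mESC and NPC and NC overlapped. Zic5 fell in NC against mESC, with a log2 fold change of -1.73 (SE 0.550, interval -3.05 to -0.41, adjusted p = 0.0324). The log2 fold change was -0.76 in NPC against mESC (interval -2.08 to 0.56, adjusted p = 0.318) and -0.97 in NC against NPC (interval -2.29 to 0.35, adjusted p = 0.243). The fall in NC was lost when low genes were kept (adjusted p = 0.112), without mESC 1 (0.167), without mESC 2 (0.161) and without NC 1 (0.184, log2 fold change -1.13), within a range of 0.0103 to 0.184 over 14 alternatives.

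Read against all tested genes, 2 of the 4 members rose in NPC against mESC, where 26.0% of genes did. In NC against mESC 2 rose and 1 fell, where 37.8% of genes rose and 22.1% fell. None of the 4 passed in NC against NPC, where 15.2% of genes rose and 10.1% fell. Both NPC libraries lay above both mESC libraries for Zic1 and Zic4, as for 45.9% of tested genes, and below them for Zic5, as for 28.3%. Both NC libraries lay above mESC for Zic1 and Zic4 (48.5% of genes) and below it for Zic5 (30.2%). NC and NPC overlapped for all 4 members, while 40.3% of genes lay wholly above and 28.2% wholly below.

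**Figure D1:**
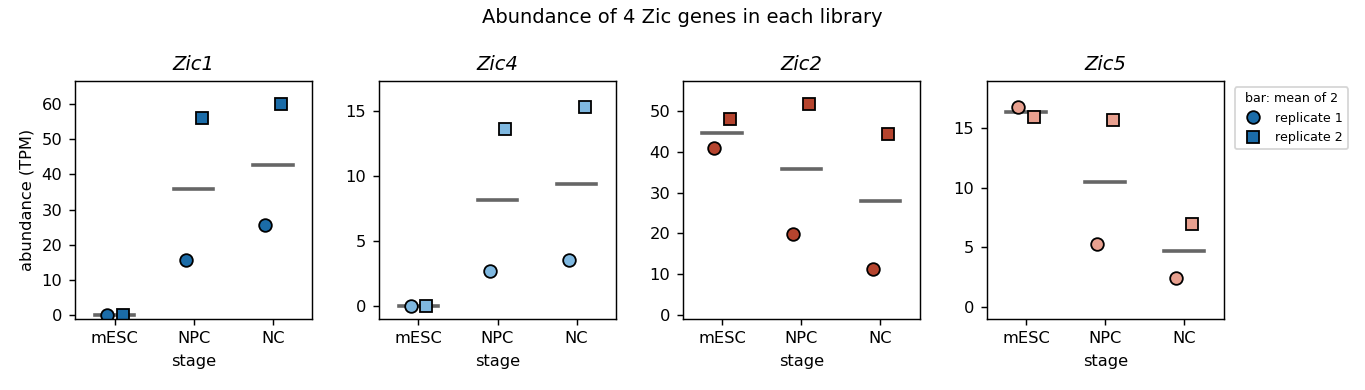
Abundance in TPM (vertical axis, a scale of its own for each gene) of Zic1, Zic4, Zic2 and Zic5 at the 3 stages, with circles for replicate 1, squares for replicate 2 and bars for the mean of 2 libraries. Zic1 and Zic4 are at or near 0 in mESC, Zic2 and Zic5 are present throughout, and in NPC and NC replicate 2 lies above replicate 1 for each gene.

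**Figure D2:**
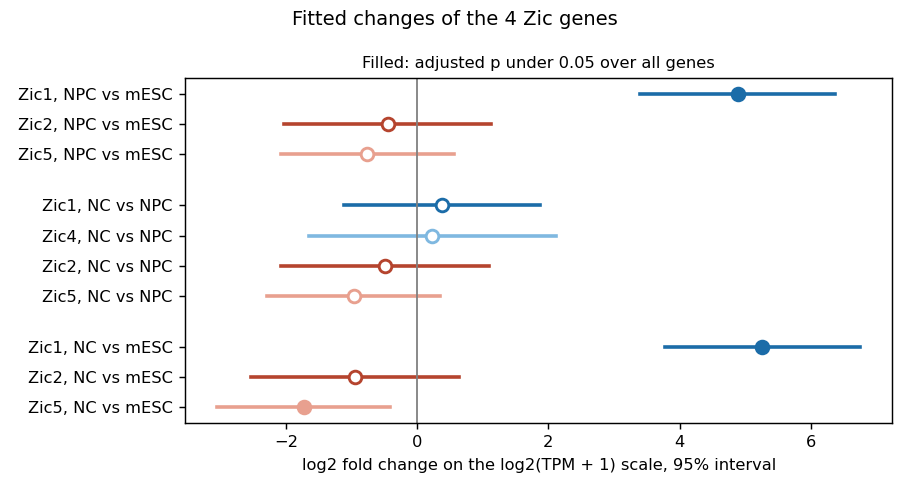
Fitted log2 fold changes on the log2(TPM + 1) scale (horizontal axis) with 95% intervals, filled where the adjusted p over all genes is under 0.05. Only Zic1 against mESC and Zic5 in NC against mESC are filled, and Zic4 is not drawn against mESC, where it is listed at 0.

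Because TPM can be added across genes, the shares of the 4 genes in their own sum, which is not that of the whole family, were followed in each library. The summed level of the 4 genes was 57.7 and 64.2 TPM in mESC, 43.65 and 137 TPM in NPC and 42.7 and 127 TPM in NC. The sum of NPC and NC thus lay below mESC in both first libraries and above it in both second ones. The share of Zic1 and Zic4 in the sum was 0.0451% in mESC library 1 and 0.108% in library 2. In NPC it was 42.3% and 50.8%, and in NC 68.1% and 59.4%, again for libraries 1 and 2. Unlike the sum, this share did not overlap between the stages. The gap of NC and NPC was about as wide as the difference between the replicates of either stage, while mESC stood far below both. With 2 libraries against 2, an exact permutation test cannot give a p under 0.05, and no p is given for it.

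The ratios within each pair were compared next. The ratio of Zic2 to Zic5 was 2.44 and 3.03 in the mESC libraries, 3.77 and 3.30 in the NPC libraries and 4.56 and 6.42 in the NC libraries. It did not overlap between stages, but the gap of NPC and mESC was narrower than the difference between replicates of either. The gap of NC and NPC was narrower than the difference between the NC replicates, though wider than that between the NPC replicates. As for the share above, no p is given. Zic2 was the more abundant member in all 6 libraries. The ratio of Zic1 to Zic4 was 5.88 and 4.12 in NPC against 7.21 and 3.93 in NC, which overlap.

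**Figure D3:**
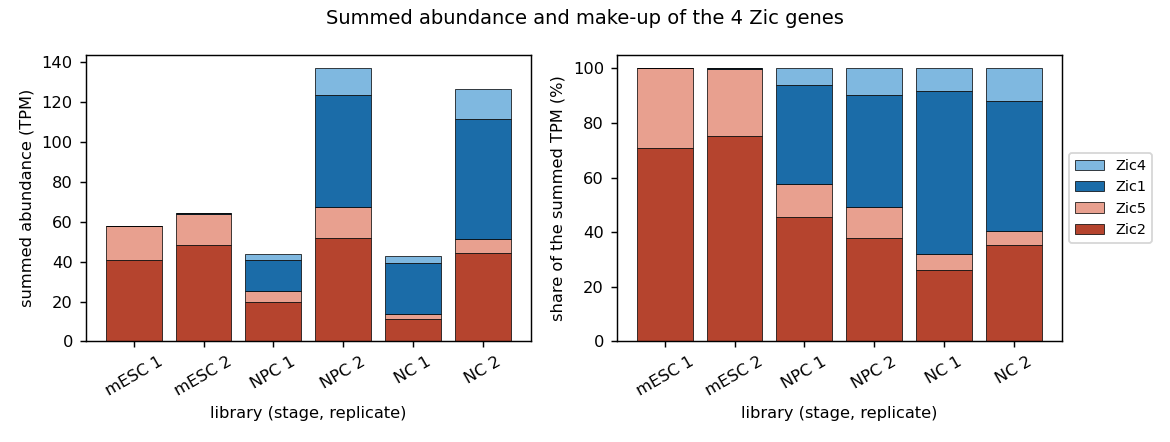
Summed abundance of the 4 Zic genes in TPM (left) and the share of each gene in that sum in percent (right), 1 bar per library. The sum differs between replicates of NPC (43.65 and 137 TPM) and NC (42.7 and 127 TPM), while the share of Zic1 and Zic4 is under 1 percent in mESC and between 42.3% and 68.1% in NPC and NC.

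The spread between replicates was itself a shared feature of the 4 genes. In NPC, library 2 exceeded library 1 by 3.55 times for Zic1, 5.08 times for Zic4, 2.60 times for Zic2 and 2.97 times for Zic5. On the log2(TPM + 1) scale only 0.549%, 0.351%, 1.43% and 1.24% of all tested genes spread as widely between these 2 libraries, in the same order of genes. In NC, library 2 exceeded library 1 by 2.35 times for Zic1, 4.31 times for Zic4, 3.98 times for Zic2 and 2.83 times for Zic5, a spread reached by 5.58%, 1.47%, 1.30% and 5.61% of genes. All 4 members were thus higher in library 2 of both stages by more than 1 on the log2 scale, which 2.05% of tested genes were in NPC and 4.23% in NC. In mESC the replicates were close for Zic2 and Zic5, with library 2 at 1.18 times library 1 for Zic2 and 0.949 times for Zic5. Zic1 and Zic4 were at or near 0 in mESC, so their spread cannot be judged there. The labels do not say that libraries with the same number share a culture.

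Dorsal neural tube genes, a list of 18 of which 15 were tested, gave a partly like picture between replicates. This list and the ventral one below were chosen with earlier results of these data known, so their counts are descriptive. In NPC 11 of the 15 were higher in library 2, with a median difference of 0.85 and 6 of them by more than 1 on the log2 scale. Of all tested genes 53.8% were higher in NPC library 2, with a median difference of 0.02. Examples were Wnt1, a roof plate and midbrain signal, with 29.5 and 91.2 TPM, Msx3, a dorsal homeobox factor, with 41.8 and 138 TPM, and Pax3, a dorsal progenitor factor, with 20.9 and 50.3 TPM in NPC libraries 1 and 2. All 8 tested genes of a ventral list were lower in NPC library 2, with a median of -0.64. Dbx1, which marks progenitors of the intermediate neural tube, had 311 and 176 TPM, and Foxa2, a floor plate and endoderm factor, had 24.3 and 17.4 TPM in NPC libraries 1 and 2. In NC the dorsal median was 0.26, with 11 of 15 higher in library 2, and the ventral median was -0.29, while 52.1% of all tested genes were higher in library 2 with a median of 0.02. Stage markers differed between replicates too. In NPC all 8 neuron markers were higher in library 2 (median 0.40). In NC 7 of 8 neural progenitor markers were lower in library 2 (median -0.72), 3 of them by more than 1 on the log2 scale. Hes5, a Notch target of progenitors, had 131 and 13.7 TPM and Fabp7, a radial glia protein, 792 and 164 TPM in NC libraries 1 and 2. The replicates of NPC and NC therefore differed in these marker genes as well as in the Zic genes, and the part of this difference in the comparisons of stages was not tested.

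**Figure D4:**
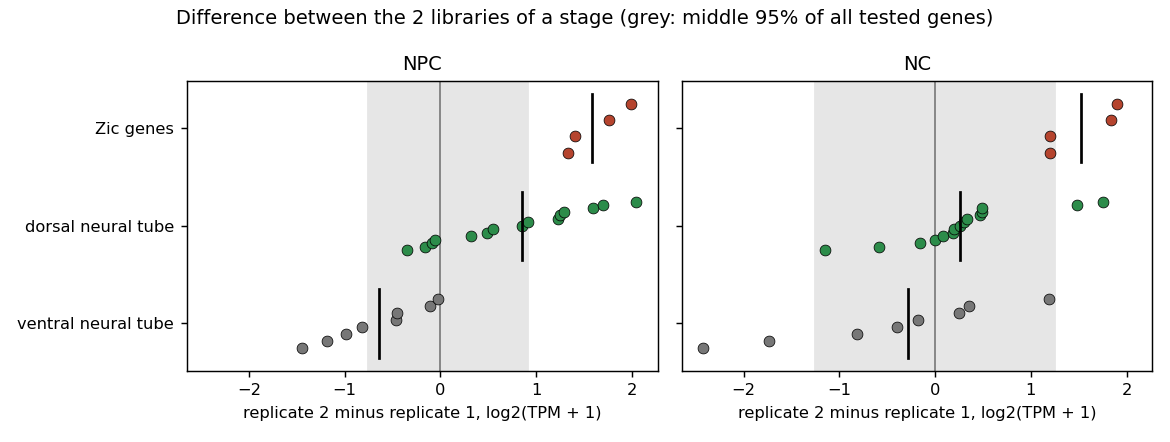
Difference between library 2 and library 1 on the log2(TPM + 1) scale (horizontal axis) in NPC (left) and NC (right), 1 point per tested gene, with vertical bars for list medians and grey for the middle 95% of all tested genes. All 4 Zic genes lie above 1 in both stages, dorsal genes have a median of 0.85 in NPC and 0.26 in NC, and ventral genes have medians of -0.64 and -0.29.

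Between stages, dorsal neural tube genes rose with Zic1 in the progenitors, and so did most tested ventral genes. Both lists were chosen with earlier results of these data known. In NPC against mESC 11 of the 15 tested dorsal genes rose and 1 fell (26.0% and 14.0% of all tested genes). Their median log2 fold change was 2.02, against 0.18 for all genes. Msx3 rose by 6.02 (adjusted p = 0.000409), with 41.8 and 138 TPM in NPC and 0 and 0.416 TPM in mESC. Wnt1 rose by 5.73 (adjusted p = 0.00123), and Msx1, a BMP-responsive dorsal factor, by 5.30 (adjusted p = 0.000131). Bmp4, a roof plate signal that stem cells also make, fell by 3.68 on the log2 scale. In NC against NPC 9 of the 15 fell and 1 rose (10.1% and 15.2% of all tested genes), with a median of -1.68. Wnt1 fell to 0.312 and 3.42 TPM in NC, against 29.5 and 91.2 TPM in NPC (log2 fold change -4.46, adjusted p = 0.00767). Pax7 changed by -3.31 (adjusted p = 0.00662) and Msx2 by -2.94 (adjusted p = 0.00530), while Lmx1b, also a factor of dorsal spinal cord neurons, rose by 3.62. Without NPC library 2 only 2 of the 15 fell, and without any other single library 6 did.

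Pax3 differed from most of these in the values of the last stage. It had 28.5 and 34.5 TPM in NC and 20.9 and 50.3 TPM in NPC, and like Zic1 it was not called in NC against NPC (log2 fold change -0.05, adjusted p = 0.946). In NC against mESC 6 dorsal genes rose and 2 fell (median 1.27, against 0.31 for all genes), led by Lmx1b with 4.89, Pax3 with 4.75 and Msx3 with 3.89. Among all tested genes 37.8% rose and 22.1% fell in this comparison. Of the 8 tested ventral genes 6 rose in NPC against mESC (median 1.84), and 1, Olig2, fell in NC against NPC. The shares over all tested genes were 26.0% higher in the former and 10.1% lower in the latter. The ventral count dropped to 3 without mESC 2, 2 without NPC 1 and 3 without NPC 2, and Olig2 was not called without NPC 1.

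The GLI and GLIS factors, the nearest relatives of the ZIC proteins by their fingers, changed in several directions. In NPC against mESC 3 of 6 rose and none fell (median 0.88). Gli3, the main repressor among them, had 39.8 and 39.7 TPM in NPC and 7.37 and 8.31 TPM in mESC (log2 fold change 2.21, adjusted p = 0.00024), Glis2 rose by 1.33 and Glis3 by 0.89. In NC against NPC 2 fell and none rose (median -0.56). Gli1, a target and effector of Hedgehog signalling, fell to 3.20 and 0.590 TPM in NC, against 45.5 and 28.9 TPM in NPC (log2 fold change -3.85, adjusted p = 0.00425), and Gli3 changed by -0.82 (adjusted p = 0.0190). In that comparison none was called without NPC 1, and 1 was called without NPC 2 or without NC 1. In NC against mESC 4 rose and 2 fell (median 1.10), and without mESC 2 the counts were 2 and 1. Gli3, Glis3 and Glis1 led those that rose, with 1.39, 1.23 and 1.16, and Gli1 (-4.06) and Gli2 (-1.38) fell. Among all tested genes 26.0% rose and 14.0% fell in NPC against mESC, and 15.2% rose and 10.1% fell in NC against NPC. For NC against mESC these shares were 37.8% and 22.1%.

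**Figure D5:**
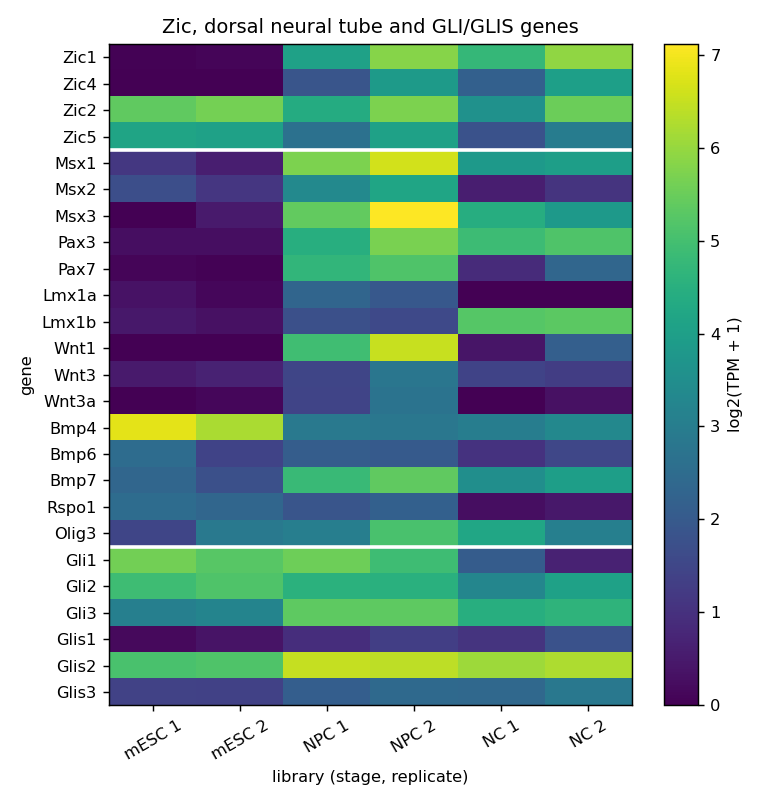
Log2(TPM + 1) in each of the 6 libraries (colour) for the 4 Zic genes (top), the 15 tested dorsal neural tube genes (middle) and the 6 GLI and GLIS genes (bottom). Most dorsal genes are brightest in NPC, Lmx1b is brightest in NC, and Gli1 is darkest in NC.

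Genes of other settings in which ZIC factors are known were read from further lists. Among all tested genes 26.0% rose and 14.0% fell in NPC against mESC, and 15.2% rose and 10.1% fell in NC against NPC. Of 12 tested granule neuron genes 8 rose and 1 fell in NPC against mESC (median 1.66), led by the homeobox factors Meis1 (4.62) and Meis2 (4.25) and by Pax6 (3.75). In NC against NPC 3 rose and 2 fell, with Mab21l1 at 4.24, the synaptic organiser Cbln1 at 3.50 and Nfix as the smallest of them. Atoh1, which defines granule cell precursors, was under 1 TPM except in NPC library 2, which had 5.39 TPM, and Gabra6, a receptor subunit of mature granule cells, was at 0 in all libraries. Of 12 tested neural crest genes, 2 of them shared with the dorsal list, 7 rose and 2 fell in NPC against mESC and 4 rose and 2 fell in NC against NPC, where Sox10, the defining crest factor, had 12.3 and 4.12 TPM in NC and 0.789 and 0.347 TPM in NPC.
Of 9 genes of Cajal-Retzius neurons, early cortical neurons in which Zic genes are known, 6 rose in NPC against mESC and 7 in NC against NPC. None was lower in either, and 26.0% and 15.2% of all tested genes rose. Lhx1, Lhx5 and Ebf3 rose by 5.97, 5.24 and 4.80 in NPC, and Reln, the secreted protein that marks these cells, had 65.2 and 78.8 TPM in NC and 12.8 and 13.6 TPM in NPC. Trp73, a defining factor of the same cells, was under 1 TPM in both NC libraries. In the axon midline list, 3 of 5 tested rose and 1 fell in NPC against mESC (26.0% and 14.0% of all tested genes). Ephb1, the guidance receptor that Zic2 controls in mouse retinal neurons, had 37.05 and 10.2 TPM in NC and 4.08 and 4.99 TPM in NPC (log2 fold change 1.90, adjusted p = 0.0479).

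Stem cell partners of Zic2 were read in the same way, where 26.0% of all tested genes rose and 14.0% fell in NPC against mESC. Of 14 NuRD genes, the chromatin remodelling complex with which Zic2 is known to act in mouse stem cells, 6 rose and 3 fell in NPC against mESC (median 0.34). Mbd3, the subunit reported with Zic2, had 76.7 and 82.4 TPM in NPC and 73.3 and 79.75 TPM in mESC (adjusted p = 0.813). Chd3 rose by 2.29 and Mta3 changed by -1.43 (adjusted p = 0.00043). Of 10 genes of the primed epiblast 3 rose and 4 fell in NPC against mESC, with Sox3, a neural and epiblast factor, at 5.07 and the homeobox factor Otx2 at -3.74. Utf1, a chromatin protein of pluripotent cells, changed by -7.67, and Lefty2, a Nodal inhibitor, was listed at 0 in both NPC libraries and had 204 and 114 TPM in mESC. Of 13 tested holoprosencephaly genes, the group to which Zic2 belongs by its human disease, 4 rose and 4 fell in NPC against mESC. The Hedgehog co-receptors Gas1 and Boc rose by 5.20 and 4.81, and Nodal, the early patterning ligand, was listed at 0 in both NPC libraries and had 67.0 and 47.6 TPM in mESC.

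Markers of other cells were present beside the Zic changes. Among all tested genes 15.2% rose and 10.1% fell in NC against NPC, and 26.0% rose and 14.0% fell in NPC against mESC. The summed level of 13 mesenchyme genes was 939 and 1116 TPM in NC and 95.9 and 120 TPM in NPC, and 8 of 12 tested rose and 2 fell in NC against NPC. Of those that rose, Dcn had 20.1 and 22.4 TPM in NC and 0 and 0.504 TPM in NPC. The 2 that fell were Foxc2 and Foxd1. Foxc2 had 2.38 and 1.41 TPM in NC and 9.93 and 8.71 TPM in NPC. Foxd1 had 1.49 and 0.729 TPM in NC and 7.96 and 3.77 TPM in NPC. Foxc1 and Pdgfra had no call, and Pdgfra had 10.6 and 30.5 TPM in NC and 34.7 and 26.3 TPM in NPC. The summed level of 10 glial genes was 246 and 155 TPM in NC and 122 and 138 TPM in NPC, where 1 of 7 tested rose and 2 fell in NC against NPC, with Gfap at 9.72 and 0.598 TPM in NC. Endoderm genes summed to 276 and 188 TPM in NPC and 211 and 49.8 TPM in mESC, and 3 of 9 rose in NPC against mESC. Of the somite and muscle list, which shares Pax3, 3 of 5 tested rose in NPC against mESC and 1 fell, and Myf5 and Myod1 were at 0 in all libraries. The part of these cells in the Zic values was not tested.

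The genes most like each member were found by distance, the Euclidean distance over the 6 libraries of log2(TPM + 1) after removal of each gene's own mean. Only tested genes were ranked. The members, symbols of the form Gm with digits and symbols ending in Rik were left out, so genes so named may lie nearer. Nearest to Zic1 were Hoxc6, a homeobox gene of the trunk axis (distance 0.642), Epha3, an axon guidance receptor (0.847), and Pax3 (0.943). Hoxc6 had 0.196 and 0.808 TPM in mESC, 29.7 and 72.8 TPM in NPC and 46.4 and 112 TPM in NC, with library 2 above library 1 at each stage. Nearest to Zic4 were Hoxa7 (1.17), also a trunk homeobox gene, Stc1 (1.26) and Cdh23 (1.26). Hoxa7 had 3.02 and 5.85 TPM in mESC, 13.4 and 39.9 TPM in NPC and 10.3 and 48.3 TPM in NC.
Nearest to Zic2 were the small nucleolar RNA genes Snord92 (0.606) and Snora23 (0.732) and Lrch4 (0.753). Nearest to Zic5 were the histone genes Hist1h3g (0.791) and Hist1h1d (0.801) and the microRNA gene Mir1949 (0.833). Some of these were low. Snord92 had 0 and 2.35 TPM in NC and at most 5.21 TPM in any library, and Mir1949 had 2.3e-05 and 0.544 TPM in NC. The RNA was enriched for poly(A), and how fully small RNA and histone genes were captured was not tested. Hist1h1d had 29.2 and 30.7 TPM in mESC, 14.6 and 27.2 TPM in NPC and 4.84 and 8.06 TPM in NC. Between members the distance was 0.954 for Zic2 and Zic5 and 2.46 for Zic1 and Zic4, and between 4.35 and 7.42 for the pairs from different chromosomes. The distance is not scaled for the size of a change, so it does not compare the shape of profiles alone. Zic4 was lower than Zic1 in each NPC and NC library.

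The neighbourhoods of both pairs together held 14 other genes within 100 kb, of which 5 were tested. Beside Zic2, the noncoding gene 2610035F20Rik starts 236 bases from the Zic2 start on the other strand and had 5.64 and 5.58 TPM in mESC, 2.47 and 6.76 TPM in NPC and 1.90 and 2.58 TPM in NC. Like Zic2 it had no call (adjusted p 0.538 in NPC against mESC, 0.256 in NC against NPC and 0.0631 in NC against mESC). The enzyme gene Pcca stayed between 20.4 and 30.3 TPM with no call. Clybl, also an enzyme gene, was lower in NC against mESC (log2 fold change -1.29, adjusted p = 0.0127), and Gm5089 had no call. On chromosome 9, Gm37477, which lies within Zic4 and shares 468 exonic bases with it, had 0.355 and 7.08 TPM in NPC and 0.137 and 0 TPM in mESC, with no call (adjusted p = 0.154). These bases are 52.9% of the exonic bases of Gm37477, which is on the other strand from Zic4. With the strand setting unknown, reads from them cannot be told apart, so its values may hold Zic4 reads. The other 9 were not tested, and of these Gm25464 alone passed 1 TPM in any library, with 1.89 TPM in mESC 1.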

How the data were processed

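RNA enriched for poly(A) and depleted of rRNA was sequenced on an Ion Proton in 6 libraries. The submitters' processing notes list DESeq2, R 4.0.3, StringTie 2.1.5, STAR 2.7.9a, cutadapt 3.4 and FastQC, and the build mm10; annotation release and strand setting are not given. Per the file headers, the deposited tables are StringTie gene abundances, with coverage (mean read depth over exons), FPKM (per transcript length and aligned bases) and TPM (FPKM rescaled to 1 sum). The most common ratio of coverage to FPKM, held by 38.3% to 39.7% of the genes used for it, was taken as an estimate of the aligned bases. No read counts were used, so no counting interval is given.

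Lines repeating a gene ID (2 to 9 per table) were added together, and all 37 mitochondrial genes are at 0. Genes with at least 1 TPM in at least 2 libraries were tested with limma 3.58.1 in R 4.3.3 (lmFit, eBayes with trend) on log2(TPM + 1), with 1 coefficient per stage, no replicate block and 3 residual degrees of freedom. Two-sided p-values were adjusted by Benjamini-Hochberg, with 0.05 as threshold. The procedure was tested on simulated data.

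The members and gene lists were chosen with earlier results of these data known. Named genes were the members and, per list, up to 3 called genes in each direction with the largest change. Genes set beside a member by role were also named. So were the 3 genes nearest by distance, leaving out members and Gm or Rik symbols, and all genes within 100 kb. Examples between replicates, defining markers and the mesenchyme genes named were chosen after their values were seen. Finger stretches were aligned with Biopython 1.88. Alternatives were another pseudocount, filters, scalings, FPKM, a replicate block, fits of the 2 stages compared and leaving out each library. Other genes of the family are not analysed here.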

Additional observations from a re-analysis of the deposited data

How the results depend on the processing

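The 12 results on single Zic genes were recomputed under 14 alternatives each. Of these 168 values, 148 kept their direction and side of the threshold, 12 lost a call and 8 uncalled values changed sign. The cause was not tested. Keeping all genes above 0 ended 3 calls: Zic4 in NPC against mESC (adjusted p = 0.117), Zic4 in NC against mESC (adjusted p = 0.0693) and Zic5 in NC against mESC (log2 fold change -1.73, adjusted p = 0.112). The same setting lowered the number of genes called in NC against NPC to 3166, against 5123, with more genes tested. The main fit shares 1 spread over all stages. With only NC and NPC fitted, the SE of their comparison rose to 0.769 in Zic1, 0.837 in Zic2, 0.990 in Zic4 and 0.693 in Zic5. The printed intervals of NC against NPC are thus narrower than those of a fit on these stages alone. With only NC and mESC fitted, the SE of their comparison fell for every Zic gene.

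When 1 library was left out, the number of genes called ran between 4032 and 8484 in NPC against mESC, between 309 and 4156 in NC against NPC and between 9499 and 11187 in NC against mESC. The first fell furthest without NPC 1 (4621) or NPC 2 (4032), and the second without NPC 1 (309), NPC 2 (1276) or NC 2 (3315). A stage left with 1 library is assumed to vary like the others. In the same runs, the adjusted p of Zic4 ran between 0.0237 and 0.165 in NPC against mESC and between 0.0116 and 0.109 in NC against mESC. The log2 fold change of Zic1 ran between 4.001 and 5.77 in NPC against mESC and between 4.66 and 5.87 in NC against mESC, and both calls held. Zic5 ran between -2.33 and -1.13 in NC against mESC, between -1.46 and -0.06 in NPC against mESC and between -1.67 and -0.26 in NC against NPC.

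The 8 changes of sign all came from leaving out 1 library. Zic2 was 0.22 in NPC against mESC without NPC 1 (range -1.12 to 0.22) and 0.0028 in NC against mESC without NC 1 (range -1.90 to 0.0028). In NC against NPC, Zic1 was -0.50 without NPC 1 and -0.22 without NC 2 (range -0.50 to 1.26), Zic2 was 0.17 without NPC 2 and 0.45 without NC 1 (range -1.45 to 0.45), and Zic4 was -0.77 without NPC 1 and -0.69 without NC 2 (range -0.77 to 1.22).

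A fit with the replicate number as a block called 7368 genes in NPC against mESC, 4247 in NC against NPC and 11575 in NC against mESC. It changed no call of a Zic gene, but their intervals depend on it. The SE fell from 0.622 to 0.419 in Zic1 and from 0.661 to 0.379 in Zic2. In Zic4 it fell from 0.785 to 0.519 and in Zic5 from 0.550 to 0.402. The limma adjusted p of Zic2 in NC against mESC was 0.0708 with the block and 0.253 without it. The deviations of same-numbered libraries correlated at 0.045 between mESC and NPC, -0.082 between mESC and NC and -0.07 between NPC and NC. These values are over all tested genes, while the Zic genes were all higher in library 2 of both NPC and NC. The labels state no pairing and the main fit uses none, and whether the numbers pair the libraries is not known. The counts of dorsal, ventral and GLI genes without single libraries were added after seeing the data. Depth is known only as an estimate of aligned bases, and 2 libraries per stage are too few to test a single library for standing apart.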
